A study of Homo sapiens with 11 samples.

Results

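The comparison described here set MV4-11 cells kept with Chb-M' directly against MV4-11 cells kept with Chb-50. It used 2 of the 11 arrays measured, chosen by their labels, and the difference taken was the log2 level with Chb-M' minus the log2 level with Chb-50 for each gene. MV4-11 is an established acute myeloid leukaemia line, obtained from ATCC, that carries a KMT2A rearrangement. Both cultures met their compound at 1 µM for 6 h, the protocol gives no transduction or doxycycline for either, and the remaining 6 h array held cells kept with DMSO for the same time. The other 8 arrays came from cells transduced with shRNAs in every combination against RUNX1, RUNX2 and RUNX3, or against luciferase (shLuc), and kept with 3 µM doxycycline for 24 h. The series text speaks of alkylating PIP conjugates and of the RUNX family. The structural difference between Chb-M' and Chb-50 is not stated in the labels or series text, so this is 1 pair of compounds compared at a matched dose and time. Each condition had 1 array, so no difference between the compounds has a replicate check. Levels were compared for 12147 genes out of 22109 with a transcript cluster of their own, a cluster being the set of probes summarised into 1 level.

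Alkylating agents attach to DNA, and damaged DNA is known to stabilise the transcription factor p53, which switches on genes of cell cycle arrest, repair and apoptosis such as CDKN1A and MDM2. Immediate early genes, among them FOS, FOSB, JUN and EGR1, encode short-lived transcription factors whose messages appear within minutes of a growth or stress signal, and FOS and JUN proteins pair to form AP-1. RUNX proteins bind DNA together with CBFB and control blood cell genes, and RUNX1 is often altered in acute myeloid leukaemia.

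The Chb-M' and Chb-50 arrays were close to each other, and 3 of the 5 protein-coding genes that stood at least 2-fold apart were the immediate early genes FOSB, FOS and EGR1. At least 2-fold apart were 24 of 12147 genes (0.198%), with 15 higher (0.123%) and 9 lower (0.0741%) with Chb-M'. By the same count 106 genes (0.873%) differed between Chb-M' and DMSO, and 36 genes (0.296%) between Chb-50 and DMSO. These 3 comparisons share arrays and are not independent of each other. Single knockdown arrays against shLuc, which differ by 1 shRNA, gave 24 genes for shRUNX1, 22 for shRUNX2 and 27 for shRUNX3. The SD of the difference over all genes was 0.222 log2 units for Chb-M' against Chb-50 and lay between 0.196 and 0.221 in those 3 knockdown pairs. By these measures the compounds were about as far apart as 2 knockdown arrays that differ by 1 shRNA.

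Most of the genes past 2-fold had low levels. Of the 24, 18 had a mean level under 5 over the compound arrays, where the SD of the difference was 0.295. The SD was 0.120 at levels of 8 and above, where 1 of the 24 lay. Only 5 of the 24 were protein-coding, namely FOSB, DES, FOS and EGR1 on the higher side and LYNX1 on the lower side. The others were 6 microRNAs, 1 snoRNA, 4 transcribed pseudogenes, 1 long non-coding RNA and 7 loci without a RefSeq class, among them copies of 5S ribosomal RNA.

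A limma fit over all 11 arrays supplied a test, on the assumption that the compound arrays vary like the knockdown arrays. It called 0 genes (0%) at a Benjamini-Hochberg adjusted p under 0.05, with 869 genes at an unadjusted p under 0.05 and a smallest adjusted p of 0.0609. The median SE of a difference was 0.154 and the median half-width of its 95% interval was 0.361. For a typical gene an interval around a smaller difference includes 0. These intervals are not adjusted for the number of genes. Differences far larger than 0.361 also failed the adjusted test, such as FOSB at 1.62 (limma adjusted p = 0.372). The interval lay above 0 for 464 genes (3.82%) and below 0 for 405 (3.33%). Since no gene passed, the genes below are described by their levels, and "higher" and "lower" state the order of 2 arrays.

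**Figure D1:**
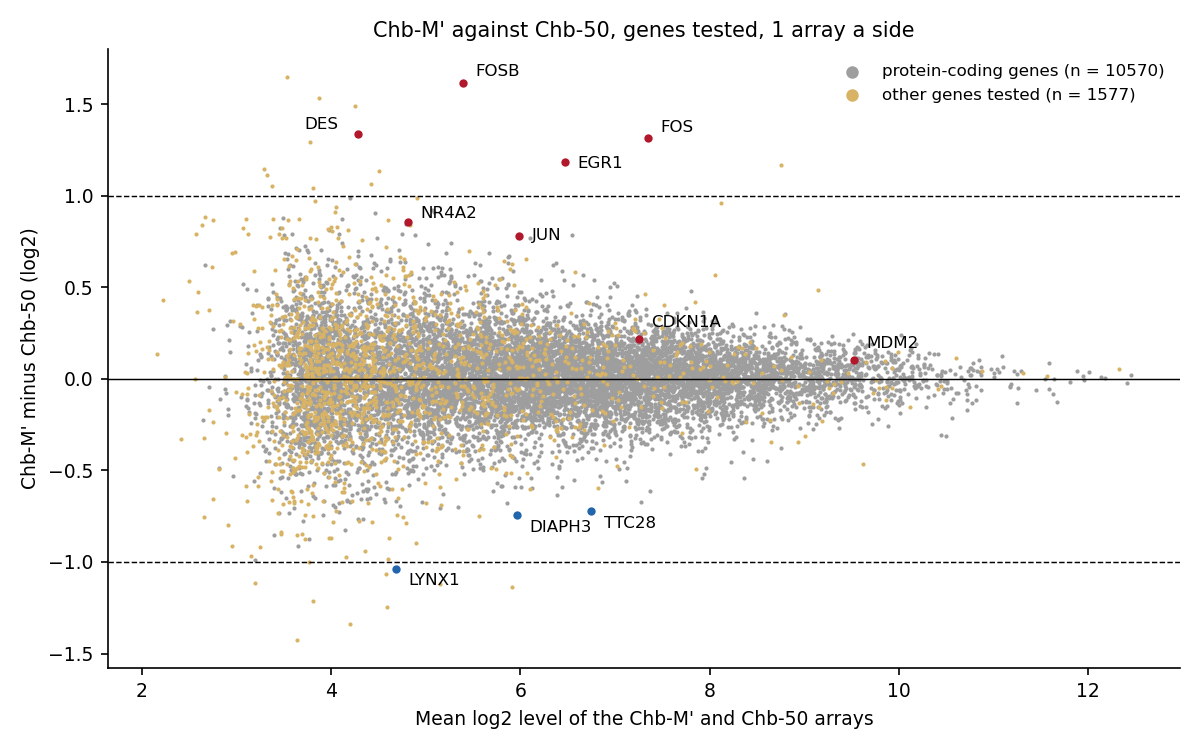
Each point is 1 of the 12147 genes tested. The x axis is the mean log2 level of the Chb-M' and Chb-50 arrays, the y axis is Chb-M' minus Chb-50 in log2 units, and dashed lines mark 2-fold. The cloud narrows to the right, and FOSB (1.62), FOS (1.31) and EGR1 (1.19) stand above the upper line at middle levels, while CDKN1A (0.22) and MDM2 (0.10) lie inside the cloud.

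FOSB, an AP-1 subunit of the FOS family, had the largest difference of any protein-coding gene tested. Its level was 6.21 with Chb-M', against 4.59 with Chb-50 and 4.84 with DMSO, and the 8 knockdown arrays ran from 4.85 to 5.53 with a median of 5.32. The Chb-M' array was thus the highest of the 11 and the Chb-50 array the lowest. The difference was 1.62, or 3.07-fold, with a 95% interval of 0.98 to 2.25 and a limma adjusted p of 0.372. A second, dimmer cluster listed for FOSB read 3.92 with Chb-M' and 3.55 with Chb-50, a difference of 0.37, and the mean of the clusters gave 0.99.

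FOS, the founding AP-1 subunit of that family, was at 8.01 with Chb-M', against 6.69 with Chb-50 and 6.45 with DMSO. The knockdown arrays ran from 7.12 to 8.39 with a median of 7.65, so the Chb-M' level lay within their range and the Chb-50 and DMSO levels lay below all of them. The difference between the compounds was 1.31 (95% interval 0.52 to 2.11; limma adjusted p = 0.470). EGR1, a zinc finger factor induced by growth signals, was at 7.07 with Chb-M', against 5.88 with Chb-50 and 6.16 with DMSO. The knockdown arrays ran from 6.18 to 7.03, between the levels of the 2 compounds. The EGR1 difference was 1.19 (95% interval 0.35 to 2.03; limma adjusted p = 0.552).

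The RefSeq promoter windows of these 3 genes, from 250 bases before to 50 bases after the gene's start on GRCh38.p14, are shown because the genes stood apart together. The FOS window is chr14:75278578-75278877, the FOSB window chr19:45467746-45468045 and the EGR1 window chr5:138465229-138465528, all on the plus strand. Capitals mark the letters TGACGT or its reverse complement, the core of a cyclic AMP response element, CArG boxes, the site read by serum response factor, and the RUNX motif TGCGGT or its reverse complement.
FOS: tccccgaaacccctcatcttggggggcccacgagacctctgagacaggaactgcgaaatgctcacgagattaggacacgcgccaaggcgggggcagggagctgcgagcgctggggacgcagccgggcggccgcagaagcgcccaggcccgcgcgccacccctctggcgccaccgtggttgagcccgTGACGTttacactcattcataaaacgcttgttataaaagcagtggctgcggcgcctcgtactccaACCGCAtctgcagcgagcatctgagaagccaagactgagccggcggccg
FOSB: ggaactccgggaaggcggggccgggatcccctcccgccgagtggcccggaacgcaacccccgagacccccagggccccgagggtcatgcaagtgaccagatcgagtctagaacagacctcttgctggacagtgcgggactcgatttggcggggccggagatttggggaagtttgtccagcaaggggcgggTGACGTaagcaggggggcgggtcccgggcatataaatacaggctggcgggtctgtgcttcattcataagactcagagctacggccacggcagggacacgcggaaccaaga
EGR1: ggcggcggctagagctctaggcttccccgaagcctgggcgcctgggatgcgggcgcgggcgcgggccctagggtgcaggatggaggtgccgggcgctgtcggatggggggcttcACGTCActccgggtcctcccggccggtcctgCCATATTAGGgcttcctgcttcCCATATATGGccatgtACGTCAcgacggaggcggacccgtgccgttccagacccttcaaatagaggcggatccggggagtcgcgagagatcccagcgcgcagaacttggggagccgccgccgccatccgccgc

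All 3 windows held TGACGT on 1 strand or the other. Counted from the gene's start, its first base lay at -64 in FOS, at -60 in FOSB, and at -136 and -67 in EGR1. EGR1 also held 2 CArG boxes, at positions -105 and -83, and the FOS window held TGCGGT on the minus strand just inside the gene. No marked motifs overlapped. The window of JUN, an AP-1 gene described below, was searched in the same way and held none of these motifs. TGACGT stood in 7 of the 19 promoters found for the immediate early and AP-1 lists (36.8%), which include these 3 genes. It stood in 1081 of the 9215 promoters found for all genes tested (11.7%). Among genes at least 1.5-fold higher with Chb-M' it stood in 7 of 72 promoters (9.72%), and among those lower in 4 of 59 (6.78%). A CArG box stood in 2 of 19 against 103 of 9215 (1.12%). TGACGT and the CArG box were searched after the values had been seen, and a match is a description of letters and not a binding site.

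RUNX motifs were counted in the same windows. Either TGTGGT or TGCGGT, on either strand, stood in 19.0% of the promoters of all genes tested, TGTGGT in 9.68% and TGCGGT in 10.2%. Genes at least 1.5-fold higher with Chb-M' numbered 150 (1.23%), and 9 of their 72 promoters (12.5%) held either motif. Genes at least 1.5-fold lower numbered 131 (1.08%), and 13 of their 59 promoters (22.0%) did. Of the 4 protein-coding genes at least 2-fold higher, 1 window held it.

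JUN, the AP-1 partner of the FOS proteins, was at 6.38 with Chb-M', against 5.60 with Chb-50 and 5.32 with DMSO. The knockdown arrays ran from 5.37 to 5.78, so the Chb-M' array was again the highest of the 11 while Chb-50 lay among the knockdown arrays. The difference was 0.78 (95% interval 0.28 to 1.28; limma adjusted p = 0.505). JUNB was at 8.35 with Chb-M', 8.06 with Chb-50 and 7.90 with DMSO, a difference between the compounds of 0.28 (95% interval 0.04 to 0.53). The remaining AP-1 members differed by at most 0.08, among them FOSL2 (0.0093), BATF (-0.04) and BATF3 (-0.05). In all, 7 of the 9 AP-1 genes tested were higher with Chb-M' (all genes 52.7%) and 2 lower (all genes 46%). Intervals lay above 0 for 4 (all genes 3.82%), and the median difference was 0.08.

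Among the other immediate early genes, NR4A2, an orphan nuclear receptor, was at 5.24 with Chb-M', against 4.38 with Chb-50 and 4.29 with DMSO. Its knockdown arrays ran from 4.19 to 4.71, below the Chb-M' level and on both sides of the Chb-50 level. The difference was 0.86 (95% interval 0.31 to 1.40; limma adjusted p = 0.505). DUSP1, a phosphatase that switches off MAP kinases, was at 4.52 with Chb-M', 3.96 with Chb-50 and 4.09 with DMSO, a difference of 0.55 whose interval of -0.05 to 1.16 includes 0. IER5, an early response gene, was at 7.27 with Chb-M', 6.77 with Chb-50 and 6.37 with DMSO, above the knockdown range of 5.56 to 5.98 on all 3 arrays. Of the 16 immediate early genes tested 15 were higher with Chb-M', where 52.7% of all genes were, and 1 was lower, where 46% of all genes were. That gene was SRF itself (-0.03), and MYC (0.03) and KLF2 (0.07) stood next to it. The median difference was 0.24, beside 0.011 over all genes tested. The same genes had a median of 0.28 between Chb-M' and DMSO and 0.06 between Chb-50 and DMSO. Between single knockdown arrays and shLuc their medians were 0.03, 0.03 and -0.10.

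**Figure D2:**
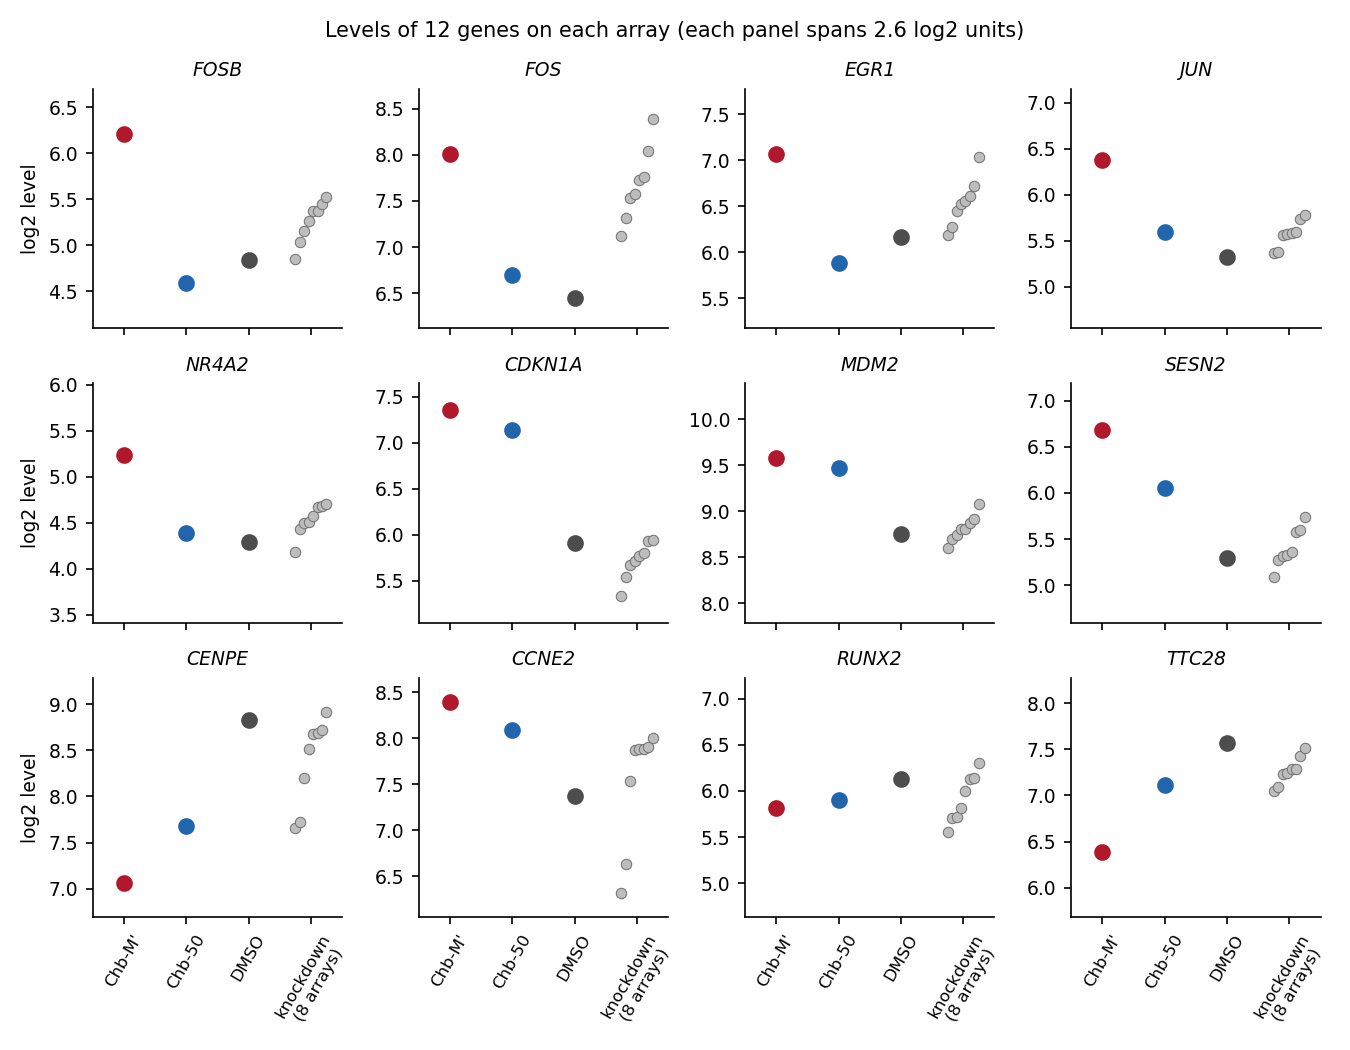
Log2 levels of 12 genes on every array: Chb-M', Chb-50, DMSO and the 8 knockdown arrays, the last sorted by level within each panel. Every panel spans the same range of log2 units. FOSB, JUN and NR4A2 are high on the Chb-M' array alone (6.21, 6.38 and 5.24), while CDKN1A and MDM2 are high with Chb-M' and with Chb-50 alike (7.36 and 7.14 for CDKN1A), above DMSO and every knockdown array.

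Most p53 targets were higher with Chb-M' than with Chb-50, and CDKN1A and MDM2 were above DMSO with both compounds. CDKN1A, the kinase inhibitor p21 that stops the cell cycle, was at 7.36 with Chb-M' and 7.14 with Chb-50, against 5.91 with DMSO and 5.33 to 5.95 on the knockdown arrays. Both compound arrays thus lay more than a log2 unit above all others. The difference between the compounds was 0.22, with a 95% interval of -0.28 to 0.71. MDM2, the ubiquitin ligase that degrades p53, was at 9.58 with Chb-M' and 9.47 with Chb-50, against 8.76 with DMSO and 8.61 to 9.08 on the knockdown arrays. Its difference was 0.10 (95% interval -0.33 to 0.54). These intervals do not show that the compounds act alike on CDKN1A or MDM2, and the data bound a difference only to their ends.

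Other targets were further apart. FAM210B, which encodes a mitochondrial protein, was at 6.93 with Chb-M', against 6.15 with Chb-50 and 6.15 with DMSO, a difference of 0.78 (95% interval 0.39 to 1.18; limma adjusted p = 0.418). The knockdown arrays of FAM210B ran from 6.20 to 6.89, so the Chb-50 and DMSO arrays were the lowest of the 11. SESN2, a stress-induced inhibitor of mTORC1 signalling, was at 6.69 with Chb-M', 6.06 with Chb-50 and 5.29 with DMSO, a difference of 0.63 (95% interval -0.03 to 1.29). EDA2R, a receptor of the TNF receptor family, was at 6.94 with Chb-M', 6.37 with Chb-50 and 5.83 with DMSO, a difference of 0.57 (95% interval -0.32 to 1.45).

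The 5 targets with an interval above 0 (19.2%, beside 3.82% of all genes) were FAM210B, PHLDA3 (0.47), XPC (0.37), TNFRSF10B (0.36) and POLH (0.36). PHLDA3 encodes an inhibitor of AKT, XPC a lesion sensor of nucleotide excision repair, TNFRSF10B a death receptor and POLH a translesion polymerase. The interval of TP53I3, a quinone oxidoreductase, lay below 0, with a level of 4.87 with Chb-M', 5.25 with Chb-50 and 4.68 with DMSO. TP53INP1 (-0.06) and FBXO22 (-0.07) were the other targets lower with Chb-M'. The 26 p53 targets tested had a median difference of 0.20, with 23 higher with Chb-M' (all genes 52.7%) and 3 lower (all genes 46%). Their median was 0.67 between Chb-M' and DMSO and 0.42 between Chb-50 and DMSO. Between single knockdown arrays and shLuc it was -0.03, 0.08 and 0.01.

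Among the regulators of p53 the differences had no common direction, with 5 of 10 higher and a median of 0.0024. CHEK2 (0.20), PPM1D (0.14) and DAXX (0.12) were the highest, and their intervals include 0. HIPK2, a kinase that phosphorylates p53, was lower, with a difference of -0.32 (95% interval -1.08 to 0.44), as was MDM4, a p53 inhibitor related to MDM2, with -0.26 (95% interval -0.55 to 0.04). TRIM24, a chromatin reader and p53 ligase, was at 7.84 with Chb-M', 8.10 with Chb-50 and 8.11 with DMSO, and its interval of -0.51 to -0.0053 lay just below 0. BCL11A, a zinc finger repressor, was at 6.65 with Chb-M', 6.72 with Chb-50 and 6.75 with DMSO. Among the other kinase inhibitors, CDKN1C was at 4.22 with Chb-M', 4.69 with Chb-50 and 4.16 with DMSO, and its interval of -0.85 to -0.08 lay below 0. CDKN1B (0.10), CDKN2A (-0.0070) and CDKN2D (-0.08) were nearly level.

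The BCL2 family sets the threshold for apoptosis at the mitochondrion. In it 11 of 13 genes were higher with Chb-M' (all genes 52.7%), and the median difference was 0.19. The furthest apart were BOK (0.38) and the BH3-only genes BBC3 (0.27) and PMAIP1 (0.27), which are themselves p53 targets. BBC3 was at 5.40 with Chb-M', 5.13 with Chb-50 and 4.85 with DMSO. The survival genes BCL2L1 (0.26) and MCL1 (0.20) were also higher, while BCL2 (-0.13) and BAK1 (-0.10) were lower. No interval in this family excluded 0.

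The cell cycle lists had small medians of differing sign, higher with Chb-M' for S phase and E2F targets and lower for mitosis genes and for histones. Of 31 S phase and E2F target genes 26 were higher with Chb-M' (all genes 52.7%) and 5 lower (all genes 46%), with a median of 0.15. The median was 0.38 between Chb-M' and DMSO and 0.23 between Chb-50 and DMSO. Single knockdown arrays against shLuc gave medians of -0.18, -0.08 and -0.0043, of which the first is larger in size than the median between the compounds. GINS2, a subunit of the replicative helicase, was at 7.79 with Chb-M', 7.46 with Chb-50 and 7.28 with DMSO. CCNE2, a cyclin of S phase entry, was at 8.39 with Chb-M', 8.09 with Chb-50 and 7.37 with DMSO, with both compounds above the highest knockdown array at 8.00. CDC6, an origin licensing factor, was higher by 0.30, and POLA1 (-0.13), GINS1 (-0.09) and E2F1 (-0.05) were lower. Knockdown arrays ranged widely for these genes, from 6.32 to 8.00 for CCNE2, and no interval in the list excluded 0. CCNE2 was at 7.90 with shRUNX1 and 7.88 with shRUNX3 but at 6.32 with both. Such departures from additive shRNA effects count as spread in the fit and widen these intervals.

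Of 32 G2 and mitosis genes 28 were lower with Chb-M' (all genes 46%) and 4 higher (all genes 52.7%), with a median of -0.16. Their median was -0.59 between Chb-M' and DMSO and -0.39 between Chb-50 and DMSO. CENPE, a kinesin that carries chromosomes to the spindle, was at 7.06 with Chb-M', against 7.67 with Chb-50 and 8.83 with DMSO. The knockdown arrays ran from 7.66 to 8.92, so CENPE was lowest of the 11 on the Chb-M' array, and the difference of -0.61 had an interval of -1.43 to 0.20. The spindle gene DLGAP5 (-0.41) and HMMR (-0.40) followed, and MAD2L1 (0.21), NEK2 (0.12) and BUB1 (0.04) were the highest. Again no interval excluded 0. Single knockdown arrays against shLuc gave medians of -0.10, -0.19 and -0.11 for these genes, a range that includes the median between the compounds.

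Replication-dependent histones are made in S phase to package new DNA, and 13 of the 29 listed were tested. Of these 13, 12 were lower with Chb-M' (all genes 46%), and the median was -0.21. The medians of the same genes between single knockdown arrays and shLuc were 0.05, 0.07 and 0.03. H2BC3 was at 4.53 with Chb-M', 5.11 with Chb-50 and 5.78 with DMSO. The linker histone H1-4 was at 10.34 with Chb-M', 10.65 with Chb-50 and 10.74 with DMSO. H2BC14 was at 10.29 with Chb-M', 10.59 with Chb-50 and 11.08 with DMSO. H2BC17 (0.04) was the 1 member higher. Several histone genes are near-identical copies, so the split of signal between them is uncertain, and no interval excluded 0. In bulk RNA, fewer cells in a phase of the cycle and less RNA per cell cannot be told apart.

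Checkpoint and repair genes varied member by member. ATR, the kinase that senses stalled replication forks, was at 6.17 with Chb-M', against 6.64 with Chb-50, 6.64 with DMSO and 6.61 to 6.78 on the knockdown arrays. It was lowest of the 11 with Chb-M', and its difference was -0.48 (95% interval -0.77 to -0.18; limma adjusted p = 0.478). CDC25A (0.38), a phosphatase that drives S phase, CHEK1 (0.24), the kinase below ATR, and WEE1 (0.24), a kinase that restrains mitosis, were higher with Chb-M'. In all, 9 of the 12 checkpoint genes were higher (all genes 52.7%), with a median of 0.12. FANCM, a translocase of the Fanconi pathway of crosslink repair, was at 5.65 with Chb-M', 6.24 with Chb-50 and 6.29 with DMSO, a difference of -0.59 (95% interval -1.36 to 0.18). FANCB was higher by 0.40 and FANCF by 0.25. The 26 repair genes had a median of 0.07, with 15 higher (all genes 52.7%) and 9 lower (all genes 46%).

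**Figure D3:**
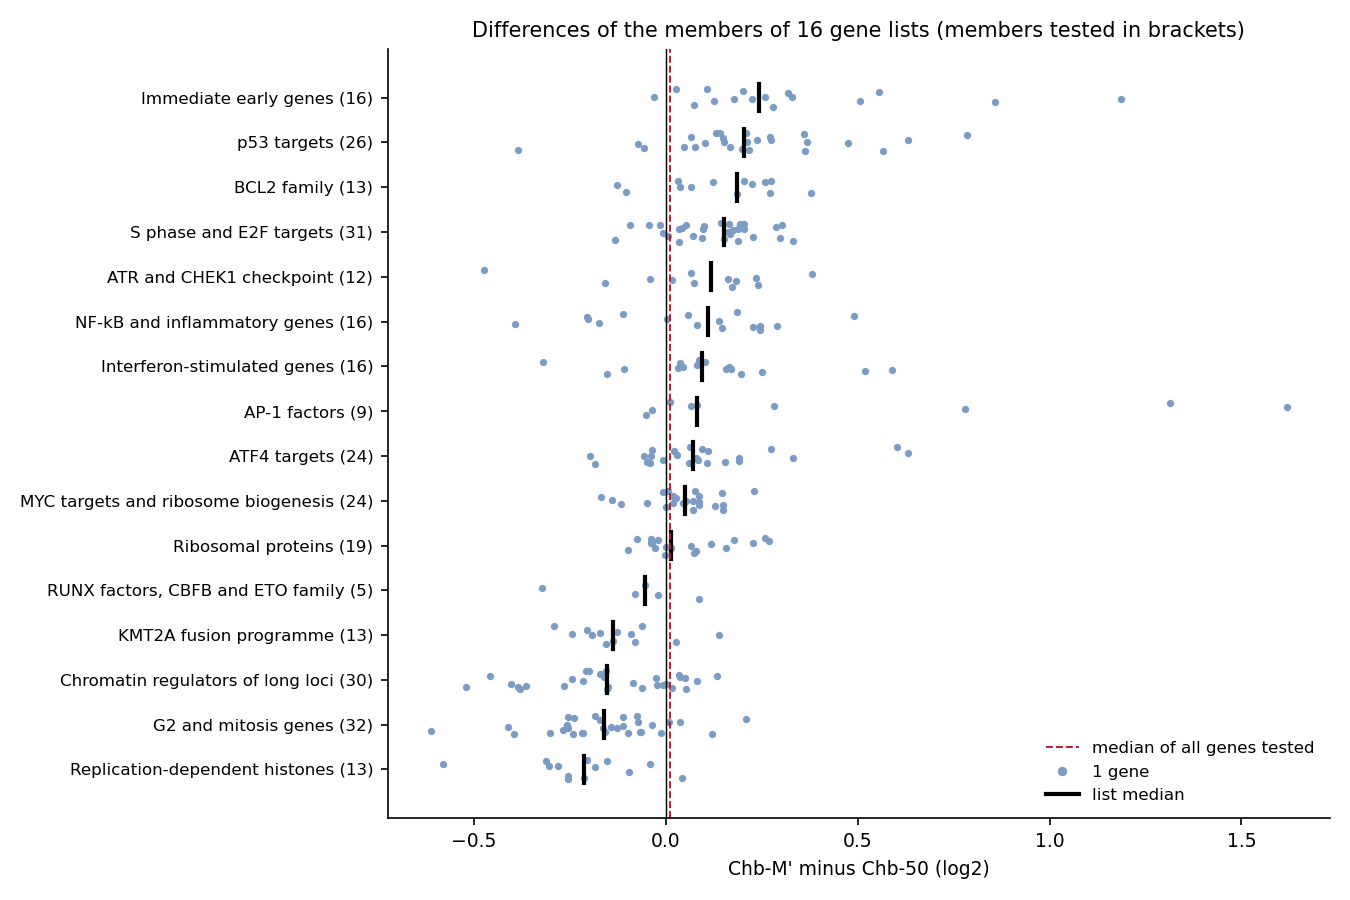
Differences of the tested members of 16 gene lists, Chb-M' minus Chb-50 in log2 units. Each dot is 1 gene, black bars are list medians, and the dashed line is the median of all genes tested (0.011). Immediate early genes (0.24) and p53 targets (0.20) lie furthest to the right by median among the lists drawn, and replication-dependent histones (-0.21) and G2 and mitosis genes (-0.16) furthest to the left.

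Long genes were lower with Chb-M'. Protein-coding genes with an annotated span of 200 kb or more had a median difference of -0.15, and 431 of 545 (79.1%) were lower. The share lower was 68.0% of 1066 genes from 100 to 200 kb, 47.5% of 3366 from 30 to 100 kb, 37.6% of 3210 from 10 to 30 kb and 37.5% of 2383 under 10 kb. The medians from short to long were 0.05, 0.04, 0.0040, -0.08 and -0.15. Of the longest genes 16 (2.94%) were at least 1.5-fold lower and 1 (0.183%) at least 1.5-fold higher, beside 62 (0.587%) lower and 79 (0.747%) higher among all 10570 protein-coding genes tested. Spans are genomic lengths from RefSeq, not lengths of the mature RNA.

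Each compound set against DMSO gave the same order of spans, by values that share the DMSO array. The medians from short to long were 0.10, 0.08, -0.0012, -0.19 and -0.40 for Chb-M' and 0.05, 0.04, -0.02, -0.11 and -0.25 for Chb-50. Single knockdown arrays against shLuc gave medians of -0.02, 0.00 and -0.02 for the genes of 200 kb and over. Among genes with a mean level of 5 or more the median of the longest class was -0.17, with 85.4% of 335 lower. With no level filter it was -0.05, with 59.0% of 1291 lower.

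**Figure D4:**
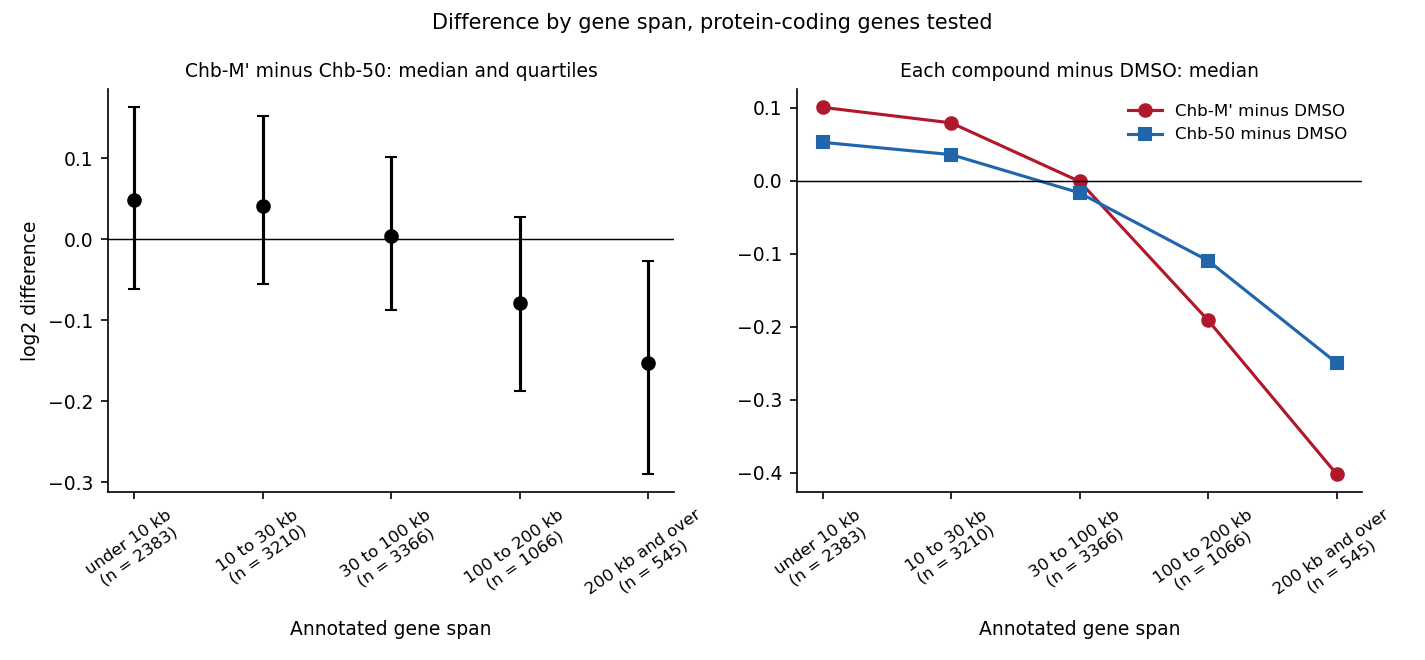
Protein-coding genes tested, in 5 classes of annotated span. Left, median and quartiles of Chb-M' minus Chb-50 in log2 units, which reach from 0.05 under 10 kb to -0.15 at 200 kb and over. Right, medians of Chb-M' minus DMSO and of Chb-50 minus DMSO, which end at -0.40 and -0.25.

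Examples of long genes with lower levels were named after their values had been seen, and they are not the full order. TTC28, which spans 702 kb, was at 6.39 with Chb-M', against 7.11 with Chb-50 and 7.57 with DMSO, and the knockdown arrays ran from 7.05 to 7.51. Its difference was -0.72 (95% interval -1.27 to -0.18; limma adjusted p = 0.583). DIAPH3, a formin that builds actin filaments, was at 5.59 with Chb-M', 6.34 with Chb-50 and 6.91 with DMSO. On both genes the Chb-M' array was the lowest of the 11. MSH3, a mismatch repair gene of 222 kb, was at 6.07 with Chb-M', 6.70 with Chb-50 and 7.10 with DMSO. ADGRL3, an adhesion receptor of 878 kb, was at 5.40 with Chb-M', 6.01 with Chb-50 and 7.05 with DMSO. Both genes thus had the Chb-50 level between the other two. XKR6 (0.64) was the 1 long gene at least 1.5-fold higher.

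The list of chromatin regulators, many of which lie in long loci, had 22 of 30 members lower with Chb-M' (all genes 46%). Its median was -0.15, and 6 intervals lay below 0 (20%, beside 3.33% of all genes). KMT2C, a histone H3 lysine methyltransferase spanning 301 kb, was at 7.68 with Chb-M', 8.20 with Chb-50 and 8.50 with DMSO, a difference of -0.52 (95% interval -0.97 to -0.08). PHF20 (-0.46), a reader of methylated lysine, was at 5.49 with Chb-M', 5.95 with Chb-50 and 5.87 with DMSO. TET1 (-0.40), a DNA demethylase, was at 4.60 with Chb-M', 5.01 with Chb-50 and 4.60 with DMSO. The TET1 interval of -1.18 to 0.37 includes 0. ASXL2 (0.13), CHD2 (0.08) and CHD1 (0.05) were the highest of the list. After each gene's difference was centred on the median of its span class, the list median was -0.08. Single knockdown arrays against shLuc gave medians of -0.09, -0.07 and -0.10 for this list.

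RUNX2, RUNX3 and CBFB were themselves nearly level between the compounds. RUNX2 was at 5.82 with Chb-M', 5.90 with Chb-50 and 6.13 with DMSO, and the knockdown arrays ran from 5.56 to 6.30. RUNX3 was at 8.61 with Chb-M', 8.52 with Chb-50 and 8.30 with DMSO, with both compounds above the highest knockdown array at 8.37. CBFB, the partner of all RUNX proteins, was at 9.41 with Chb-M', 9.43 with Chb-50 and 9.57 with DMSO. The differences between the compounds were -0.08 for RUNX2 (95% interval -0.39 to 0.23), 0.09 for RUNX3 (95% interval -0.43 to 0.60) and -0.02 for CBFB (95% interval -0.29 to 0.25). RUNX1 has only a cluster shared with LOC100506403, which read 4.13 with Chb-M', 4.23 with Chb-50 and 4.20 with DMSO. CBFA2T2, a corepressor of the ETO family, was at 5.20 with Chb-M', 5.52 with Chb-50 and 5.85 with DMSO, and its interval of -0.61 to -0.04 lay below 0. CBFA2T3 of the same family differed by -0.05.

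The KMT2A fusion programme holds the self-renewal genes kept on by KMT2A fusion proteins. Of the 21 genes listed 13 were tested, and 11 of these were lower with Chb-M' (all genes 46%), with a median of -0.14. The list holds many long genes, and its median after span centring was -0.05. PBX3, a cofactor of HOX proteins, was at 5.64 with Chb-M', 5.93 with Chb-50 and 6.09 with DMSO. MYB was at 9.00 with Chb-M', 9.25 with Chb-50 and 9.12 with DMSO, and ZEB2 differed by -0.20. LMO2 (0.14) and MYC (0.03) were the 2 members higher. No interval in the list excluded 0.

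Myeloid transcription factors, granule genes and receptors had medians close to 0. Myeloid transcription factors had 8 of 16 members higher and a median of 0.011, with NFE2 (0.38) and KLF4 (0.32) at the top and ETV6 (-0.27) at the bottom. Azurophil granule genes had a median of 0.02, and cytokine receptors 0.03, where IL10RA (0.46) was highest and IL1RAP (-0.27) lowest. Of the 9 blast markers tested for the labelled cell type, 8 were lower with Chb-M' (all genes 46%) and 1 higher. Their median was -0.06, and no interval excluded 0. FLT3 was at 9.71 with Chb-M', 9.77 with Chb-50 and 9.87 with DMSO. The leukocyte phosphatase PTPRC was at 6.998 with Chb-M', 7.34 with Chb-50 and 7.68 with DMSO, a difference of -0.34. CD38 (-0.32), which was dim at 4.16 with Chb-M' and 4.48 with Chb-50, CD44 (-0.14) and MEIS1 (-0.14) followed, and CEBPA (0.07) was the 1 higher. Of the lineage lists, 6 of 18 T, NK and B cell markers, 3 of 12 neutrophil markers and 8 of 19 erythroid and megakaryocyte markers reached the level filter. The monocyte list had 11 of 19 members tested, led by LYZ at 11.13 with Chb-M', 11.06 with Chb-50 and 11.04 with DMSO, with a median difference of 0.011.

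Stress and inflammatory lists held single genes that stood out from small medians. Interferon-stimulated genes had a median of 0.09 with 13 of 16 higher (all genes 52.7%). They were led by HERC5, a ligase for ISG15, at 4.82 with Chb-M', 4.23 with Chb-50 and 4.68 with DMSO. The HERC5 difference was 0.59 (95% interval 0.26 to 0.92; limma adjusted p = 0.442), and OAS2 was the lowest of the list at -0.32. NF-kB and inflammatory genes had a median of 0.11, led by the NF-kB cofactor BCL3 (0.49, 95% interval 0.13 to 0.84). ATF4 targets had a median of 0.07, led by SESN2 and DDIT4 (0.60), both inhibitors of mTORC1 signalling, while asparagine synthetase, ASNS, was the lowest (-0.20). Among Pol II elongation factors HEXIM1, an inhibitor of P-TEFb, was at 7.39 with Chb-M', 6.98 with Chb-50 and 6.77 with DMSO, and CDK12 (-0.26) and CDK13 (-0.21) were the lowest of their list. The list's median was 0.06.

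Housekeeping and biosynthetic lists had medians near that of all genes. These were 0.01 for ribosomal proteins, 0.01 for oxidative phosphorylation, 0.04 for glycolysis and hypoxia genes, 0.05 for MYC targets and ribosome biogenesis, 0.04 for cholesterol and fatty acid synthesis, 0.02 for NRF2 targets, 0.05 for the unfolded protein response, 0.07 for aminoacyl-tRNA synthetases, 0.03 for splicing factors, -0.03 for heat shock genes and 0.0060 for shelterin genes. Single members further out were the fatty acid elongase ELOVL6 (-0.44), the splicing factor SRSF11 (-0.39) and the unfolded protein sensor ATF6 (-0.35).

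The remaining protein-coding genes at the ends of the comparison were mostly dim. DES, the muscle intermediate filament desmin, was at 4.96 with Chb-M', 3.62 with Chb-50 and 4.21 with DMSO, a difference of 1.34 (95% interval 0.04 to 2.65; limma adjusted p = 0.679). A second cluster for DES read 3.61 with Chb-M' and 3.81 with Chb-50, a difference of -0.20, so the clusters of this gene differed in direction. LYNX1, a modulator of nicotinic receptors, was at 4.17 with Chb-M', against 5.21 with Chb-50 and 4.17 with DMSO, and the knockdown arrays ran from 4.002 to 4.18. Here the Chb-50 array alone stood apart, and the difference was -1.04 (95% interval -1.30 to -0.77; limma adjusted p = 0.184). The creatine transporter SLC6A8 (0.99), ABHD4 (0.92), DNAJC27 (0.91), ZNF28 (0.91), the glutamate receptor subunit GRIN2C (0.88), EFNA3 (0.85), RHCE (0.82), KCNK15 (0.79), LRRC3 (0.79) and KCNJ14 (0.79) completed the 15 highest. ABHD4 was at 5.53 with Chb-M', 4.61 with Chb-50 and 4.85 with DMSO, all above the knockdown range of 3.43 to 4.10.

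On the lower side stood the theta globin gene HBQ1 (-0.99), TSPYL6 (-0.91), KIR3DL3 (-0.87), DEFB115 (-0.85), FAM72B (-0.83), PDIA3 (-0.78), KLC4 (-0.77), HPCA (-0.74), FOXJ1 (-0.73), SYT12 (-0.73) and GBP4 (-0.73). Each of these 11 had a level under 5 on both compound arrays. PDIA3, FOXJ1 and DEFB115 reached the level filter of 3.80 through the Chb-50 array alone, and KCNJ14 through the Chb-M' array alone, so the filter had a part in their place here. The same holds for 142 of all genes tested and for 4 of the 24 past 2-fold. HBQ1 was at 2.70 with Chb-M', 3.69 with Chb-50 and 4.17 with DMSO, and its knockdown arrays ran from 2.67 to 3.36.

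By RNA class, 75 of 121 snoRNAs (62.0%, all genes 52.7%) were higher with Chb-M', with a median of 0.10 and an SD of 0.330. The 298 microRNAs had a median of 0.0010 and an SD of 0.402, and the 98 copies of 5S ribosomal RNA an SD of 0.489, against 0.198 for protein-coding genes. The 357 protein-coding genes named ZNF, a family of zinc finger repressors, had a median of 0.03. Clusters with no symbol listed, of which 9041 reached the level filter, were at least 2-fold apart in 511 cases (5.65%), and clusters with several symbols in 4 of 1293 (0.309%).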

How the data were processed

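RNA from MV4-11 cells was hybridised to 11 Affymetrix arrays, 1 per condition. Per the file's values the deposited levels are log2, between 0.48 and 12.74. The submitters' processing notes name RMA, Transcriptome Analysis Console 1.0 and Affymetrix Expression Console 1.3.1, without saying what each did. No genome build is stated for the probe annotation. Precision is limited by the number of arrays, since no signal over background was at hand.

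Of 53617 transcript clusters, 23558 had 1 gene symbol, 2155 several and 27904 none listed. Entrez identifiers of 22271 were matched to RefSeq GRCh38.p14, which gave classes and spans. Of 618 genes with several clusters, the brightest on average was taken. Genes whose highest level on the 11 arrays reached 3.80 were tested.

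Differences between single arrays were counted from 2-fold upwards (1 log2 unit). The pooled fit used limma 3.58.1 in R 4.3.3, with additive terms for the 3 shRNAs, own means for the 6 h arrays, 4 residual degrees of freedom and Benjamini-Hochberg adjustment. The script was tested on simulated data. Different conditions imply different cultures, but the labels name no replicate culture of any condition. For that reason p-values reflect the spread among arrays of different conditions, and part of that spread may be technical. How far cultures of the same condition differ was not measured. Each shRNA combination had 1 array, so the same spread also holds any effect of combined shRNAs that is not additive.

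The comparison and the 39 gene lists were chosen with earlier results of these data known, so list counts support nothing independently. Genes named were CDKN1A, MDM2, TRIM24, BCL11A, CBFB and the RUNX genes, the 15 highest and 15 lowest protein-coding genes and the 3 highest and 3 lowest members of each list described. Further members, clusters and the knockdown pairs set beside the compounds were chosen after their values were seen. Small RNAs and uncharacterised loci were counted and not named. Some listed genes are not analysed here, and 1 gene that the rule picked is not reported. Alternatives changed the level filter, fold threshold, scaling, cluster choice and limma settings.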

Additional observations from a re-analysis of the deposited data

How the results depend on the processing

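The count of genes at least 2-fold apart was 24, and it was 53 with no level filter, 6 with a mean level of at least 5 on the compound arrays, 281 at 1.5-fold, 2 at 3-fold and 5 among protein-coding genes only. The limma count was 0 under every alternative run, with each of the 8 knockdown arrays left out in turn (8 fits, each without 1 condition, 762 to 1068 genes at an unadjusted p under 0.05, smallest adjusted p 0.103 to 0.34) and under the other settings (485 to 1822 genes, smallest adjusted p up to 0.745). A few list medians moved with the level filter. Under the stricter filter kinase inhibitors moved from -0.0070 to 0.10, and erythroid and megakaryocyte markers from 0.0046 to 0.25. Neutrophil markers (3 genes tested) moved from 0.27 to -0.012 with no filter. Stem and progenitor markers (3 genes tested) moved from -0.30 to -0.017 with no filter and to -0.017 with the stricter filter. A filter or threshold changes which genes are counted, and other causes of these moves were not tested. Other list medians and all span medians moved by less than 0.109, the typical spread of 1 gene on 1 array. That spread is not a measure of how stable a median over many genes is. The median of genes of 200 kb and over, -0.15, ranged from -0.17 to -0.05 between settings. The median of AP-1 factors, 0.08, ranged from 0.03 to 0.18. Medians close to 0, such as those of RUNX factors, p53 regulators and splicing factors, changed sign between settings. The mean over clusters moved FOSB to 0.99, DES to 0.57 and CD44 to -0.28, and quantile normalization moved LYZ to -0.02. No paired analysis was possible because each condition had 1 array. With 1 array a side, a difference between compounds cannot be told apart from a difference between cultures or hybridisations.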
